A study of Mus musculus with 18 samples.

Results

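Target genes and factors of the Hippo pathway were followed in AT3 cells treated with inhibitors of P300/CBP and with interferon gamma (IFNγ). The 9 genes are Ctgf and Cyr61, which encode secreted matricellular proteins, Ankrd1, Amotl2, Ajuba and Lats2, which are widely used as target genes of YAP and TEAD, and Yap1, Wwtr1 and Tead1, which encode the coactivators YAP and TAZ and a DNA-binding partner. The genes were chosen by name, for their known place in the pathway, but with earlier results of these data known. All 9 of 9 were found among the 43629 genes of the count table. All 9 also passed the filter on low counts that left 11964 genes for testing.

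In the Hippo pathway a cascade of kinases, with LATS1 and LATS2 at its end, phosphorylates YAP and TAZ and holds them in the cytoplasm. When the cascade is quiet, YAP and TAZ enter the nucleus and bind TEAD factors, which read short DNA motifs at promoters and, more often, at enhancers. P300 and CBP are acetyltransferases that act at enhancers and serve as cofactors of many transcription factors, TEAD complexes included. Several targets act back on the pathway: LATS2 phosphorylates YAP, AMOTL2 binds and retains it, and AJUBA restrains LATS kinases. In carcinoma cells the output is known to follow cell density, shape and attachment.

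AT3 is a mouse mammary carcinoma line, derived from a tumour of an MMTV-PyMT transgenic mouse and used as a model of triple-negative breast cancer. RNA was measured by 3′ mRNA-seq in 18 libraries, 3 for each of 6 conditions. Cells received DMSO, 250 nM A-241 or 1000 nM A-485, both catalytic inhibitors of P300/CBP, for 1 h, and then vehicle or 1 ng/mL IFNγ for a further 2 h. The conditions are named DMSO, A-241, A-485, IFNγ, A-241+IFNγ and A-485+IFNγ, every condition was collected at 3 h in all, and the doses of the inhibitors differ. The labels call the replicates biological whereas the methods of the study call them technical, so p-values may measure only the spread between technical samples of 1 cell line.

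The libraries held between 3417167 and 7856830 counts in genes. The epithelial markers Krt8, Krt18, Epcam and Cdh1 and the mesenchymal marker Vim had counts in all 18 libraries. Of the endothelial markers, Cdh5 had counts in 0 of 18 libraries and Pecam1 in all 18, from 2 to 20 counts. Among leukocyte markers, Ptprc ranged from 0 to 73 counts, Cd68 from 1 to 14 and Cd3e from 0 to 6. DMSO replicate 3 and IFNγ replicate 2 stood apart from their partners. The transcript Gm42418, which lies in a ribosomal RNA region, took 20.1% and 23.0% of their counts, against 7.11% to 16.2% in the others, and their root mean square log2 distances from the other libraries of their condition were 1.10 and 1.13, against 0.34 to 0.77. Both belong to the control conditions against which the inhibitors are read, so differences of the genes in which either stood out are also given without both.

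Promoter sequences are shown first, because several of the 9 genes are known targets of TEAD factors, which read the core motif searched for here. RefSeq promoter windows of GRCm38.p6, from 250 bases before to 50 bases after the start site, were at hand for 7 of the 9 genes, all but Ctgf and Tead1. The letters GGAATG, or CATTCC on the other strand, occurred in a window of 7 of these 7 genes. Over all 32851 windows 14.7% held them, and over the 27025 genes with a window the share was 16.6%. The AP-1 motif TGACTCA or TGAGTCA (5.2% of all windows) and the CArG box (1.63%), the motif of serum response factor, were found in 0 of the 7. In the other lists read below, GGAATG or CATTCC occurred in 3 of 11 further targets of YAP and TAZ with a window. It occurred in 6 of 12 factors and targets of serum response factor and 4 of 6 TEAD and Vgll genes. The other lists had 2 of 9 Hippo kinases and regulators, 1 of 3 angiomotin and Ajuba family genes and 0 of 6 AP-1 factors. A match of 6 letters is a description and does not show that a factor was bound. The 30 bases around each match are given 5′ to 3′ on the strand of the gene, with the match in capitals.
Cyr61, chr3:145650071-145650100, minus strand: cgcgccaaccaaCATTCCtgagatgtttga
Ankrd1, chr19:36120037-36120066, minus strand: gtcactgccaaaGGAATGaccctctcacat
Ankrd1, chr19:36119950-36119979, minus strand: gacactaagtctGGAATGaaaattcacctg
Amotl2, chr9:102717727-102717756, plus strand: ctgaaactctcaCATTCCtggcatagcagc
Ajuba, chr14:54577830-54577859, minus strand: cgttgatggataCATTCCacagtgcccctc
Ajuba, chr14:54577808-54577837, minus strand: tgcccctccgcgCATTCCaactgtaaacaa
Lats2, chr14:57746102-57746131, minus strand: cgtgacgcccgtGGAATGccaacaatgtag
Yap1, chr9:8004720-8004749, minus strand: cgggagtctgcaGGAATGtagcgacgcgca
Wwtr1, chr3:57576029-57576058, minus strand: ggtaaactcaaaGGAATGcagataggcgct

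The match began 103 bases upstream of the start site in Cyr61 and 65 bases upstream in Amotl2. Ankrd1 held matches 210 and 123 bases upstream, and Ajuba held matches 186 and 164 bases upstream. The match of Yap1 began 141 bases upstream. Wwtr1 has overlapping windows from alternative start sites, and the same match lay 170 or 136 bases upstream. In Lats2 the match lay 5 bases inside the transcript of the alternative start, in an annotated untranslated exon, and the other Lats2 window held none. The Ankrd1 and Amotl2 bases shown also fall in untranslated exons of longer transcripts in GENCODE vM21, while those of Cyr61, Ajuba, Yap1 and Wwtr1 touch no annotated exon.

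**Figure D1:**
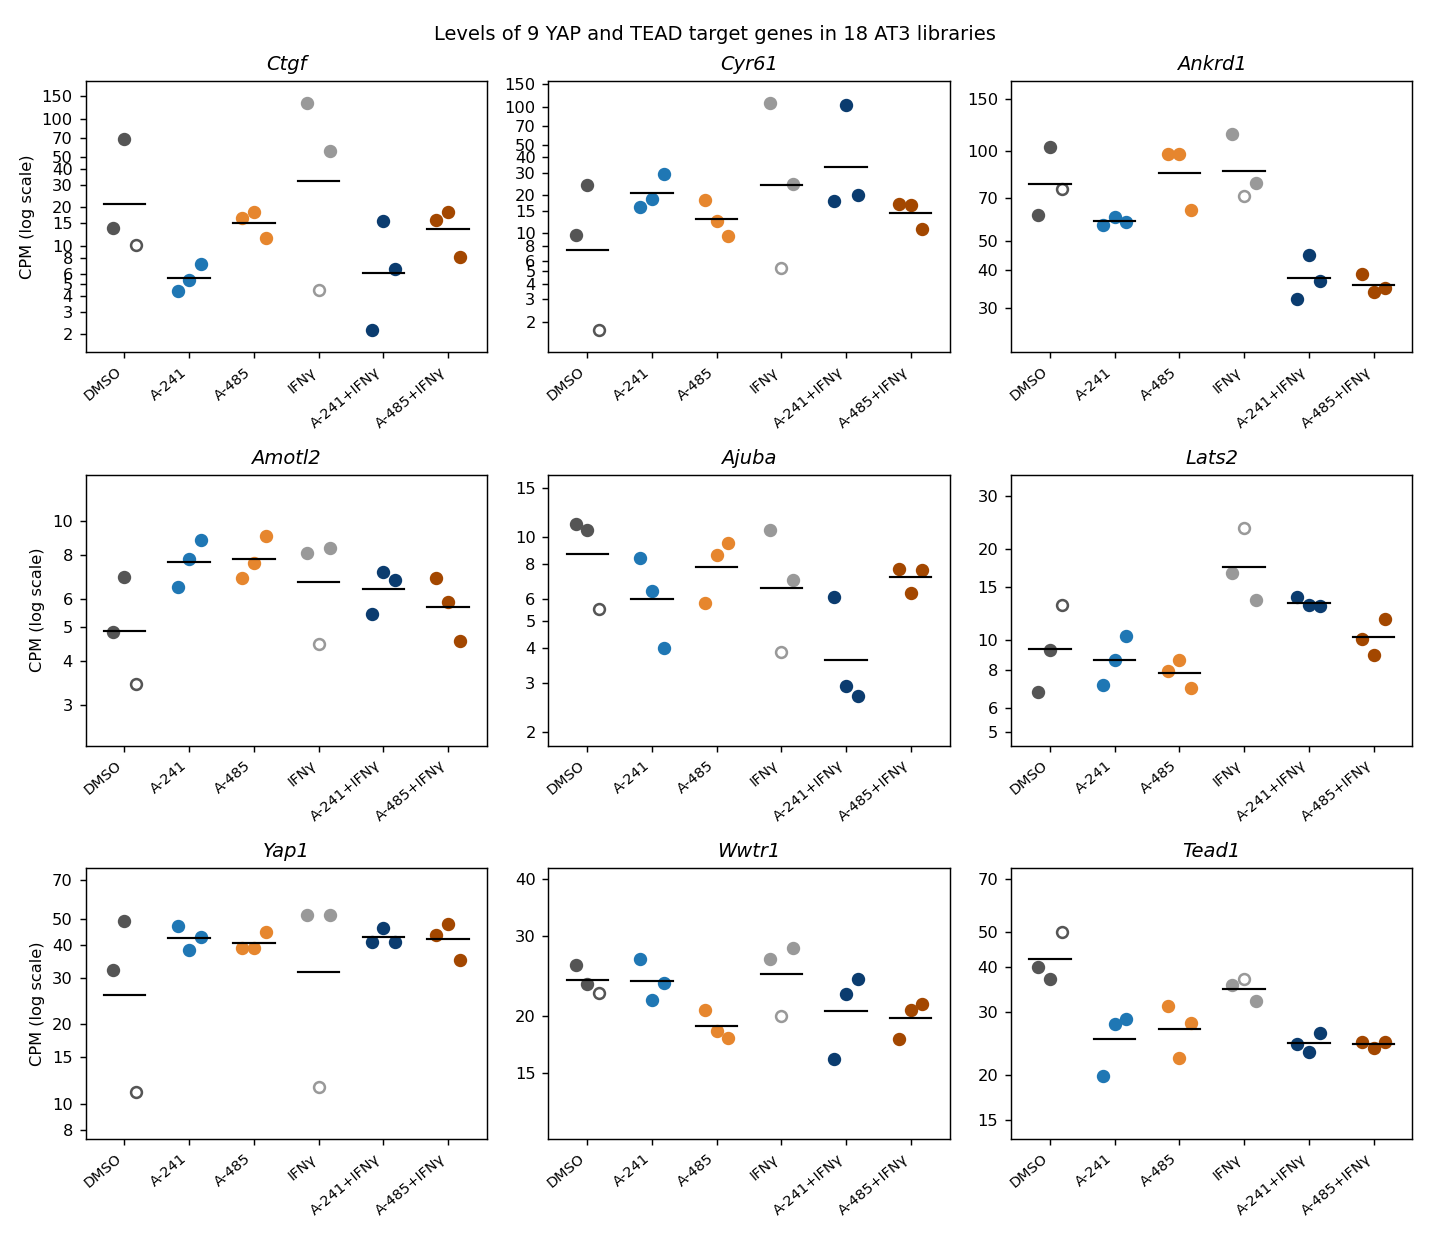
Level of each of the 9 genes in CPM (counts per 1000000 scaled counts of the library, log scale) in every library, by condition. Each point is 1 library (3 per condition), the black line is the geometric mean of the condition, and open points are DMSO replicate 3 and IFNγ replicate 2. Ankrd1 sits between 32.0 and 45.0 CPM in the 6 libraries given an inhibitor and IFNγ, below the other 12 libraries, whereas Ctgf and Cyr61 spread widely among the control libraries. How many of all genes separate in this way was not counted.

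Ankrd1 encodes a nuclear ankyrin repeat protein, first known as a cardiac and stretch-responsive factor. It was the only one of the 9 genes past the threshold in any comparison, and it fell where an inhibitor was combined with IFNγ. The gene (ENSMUSG00000024803, chr19:36111961-36120099, minus strand of GRCm38) shares no exon bases with another gene. Levels are given as CPM, the count of a gene per 1000000 counts of the library after scaling with TMM factors. The level of Ankrd1 was 61.1, 103 and 75.0 CPM in DMSO, 56.8, 60.1 and 57.9 CPM in A-241, and 97.6, 97.9 and 63.7 CPM in A-485. With IFNγ it was 114, 70.9 and 78.2 CPM, with A-241+IFNγ 32.0, 45.0 and 36.9 CPM, and with A-485+IFNγ 39.0, 33.8 and 35.0 CPM. All 6 libraries with an inhibitor and IFNγ lay below all 12 others, and the share of all genes with such a separation was not counted.

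Genes with an edgeR adjusted p under 0.01 are called, and differences are in log2 units. Compared with IFNγ alone, A-241+IFNγ lowered Ankrd1, which fell by 1.21 (SE 0.23, edgeR adjusted p = 0.00300). It was the only gene of the 9 called in this comparison, in which 4.09% of all genes tested were called and 3.54% were called lower. It fell by 1.29 with A-485+IFNγ (SE 0.23, edgeR adjusted p = 0.00814), again as the only gene of the 9, where 0.552% of all genes were called and 0.535% were called lower. Ankrd1 also fell by 1.27 from A-485 to A-485+IFNγ (SE 0.23, edgeR adjusted p = 0.00660), in a comparison in which 0.802% of all genes were called and 0.0585%, or 7 of 11964, were called lower. The libraries of A-485+IFNγ lay below those of A-485 without overlap, as did 8.5% of all genes. The measurement is of bulk RNA, in which fewer cells with the transcript and less transcript per cell cannot be told apart.

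Single libraries decided these calls. Without IFNγ replicate 1, A-241+IFNγ replicate 1 or A-241+IFNγ replicate 3 the first of them was lost, with edgeR adjusted p up to 0.0252 and log2 differences from -1.35 to -0.97 over the 6 libraries left out in turn. The A-485+IFNγ call against IFNγ held only without IFNγ replicate 2 (adjusted p = 0.00396), and rose to at most 0.0577 without any other library. With DMSO replicate 3 and IFNγ replicate 2 both left out, the differences against IFNγ were -1.35 for A-241+IFNγ (edgeR adjusted p = 0.000240) and -1.44 for A-485+IFNγ (adjusted p = 0.000453), where 7.82% and 2.68% of all genes were then called. The difference from A-485 to A-485+IFNγ kept its call only without A-485 replicate 3, and its adjusted p was at most 0.0668 otherwise.

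Neither agent alone moved Ankrd1 past the threshold. A-241 against DMSO gave a log2 difference of -0.45 (SE 0.23, edgeR adjusted p = 0.244), with its 3 libraries below those of DMSO. A-485 against DMSO gave 0.12 (adjusted p = 0.845) and IFNγ against DMSO gave 0.14 (adjusted p = 0.958), with overlapping libraries in both. The interaction asks whether the inhibitor difference depends on IFNγ, and 0 of the 9 genes were called for A-241 (0.0334% of all genes) and 0 for A-485 (0% of all genes). For Ankrd1 it was -1.41 for A-485 (SE 0.32, unadjusted p = 0.000464, edgeR adjusted p = 0.326). For A-241 it was -0.76 (SE 0.32, unadjusted p = 0.0312, edgeR adjusted p = 1.00). At an unadjusted p under 0.05, 1 of the 9 genes had an A-241 interaction (3.35% of all genes) and 2 had an A-485 interaction (4.17% of all genes). Neither interaction of Ankrd1 passed the threshold, and a difference between the inhibitor responses with and without IFNγ was therefore not shown.

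**Figure D2:**
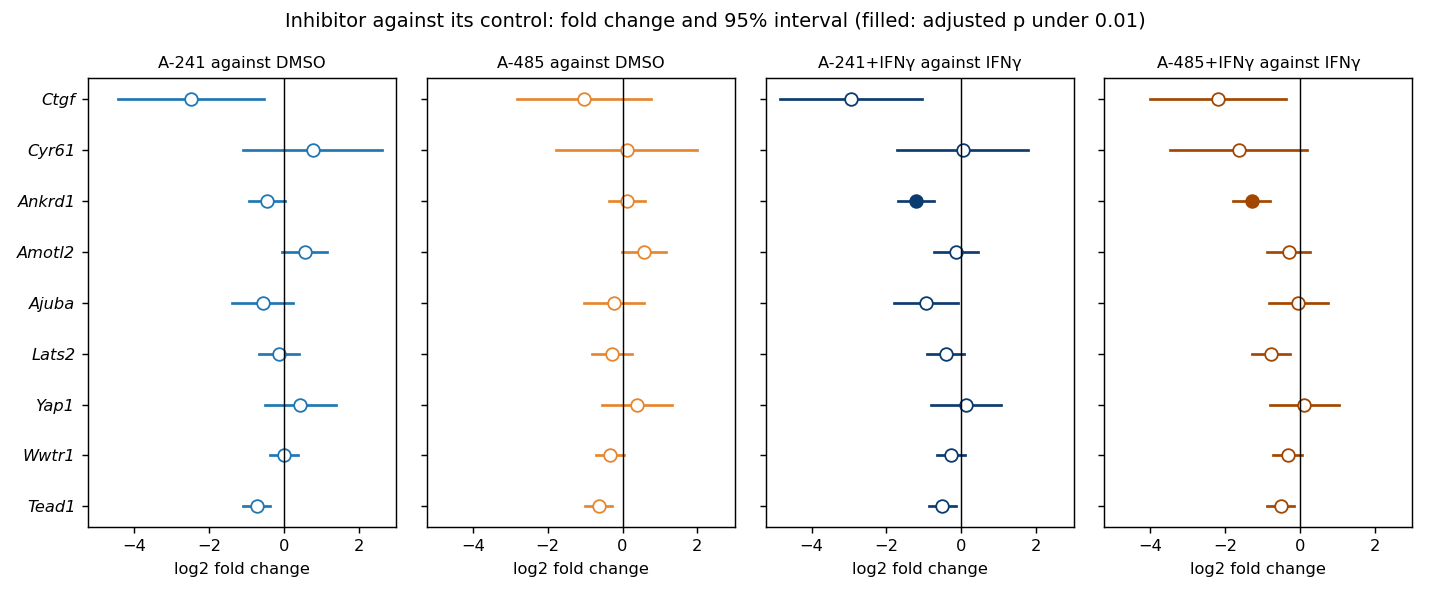
Fitted log2 fold change (x axis) of each of the 9 genes for each inhibitor against its control, without IFNγ (the pair of panels on the left) and with IFNγ (the pair on the right). Points are edgeR estimates, lines are 95% intervals, and filled points have an adjusted p under 0.01. The Ankrd1 points of the pair on the right, at -1.21 and -1.29, are filled, and the intervals of Ctgf and Cyr61 are the widest.

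Without IFNγ, A-241 brought 0 of the 9 genes past the threshold, against 4.35% of all genes tested, and 2 of the 9 had an unadjusted p under 0.05 in edgeR, against 23.2% of all genes. Their median log2 difference was -0.14, beside 0.01 for all genes. Libraries did not overlap, with A-241 lower, for 3 of the 9 (Ctgf, Ankrd1 and Tead1), against 13.4% of all genes. DESeq2 called 1 of the 9, Tead1, and 6.8% of all genes. In each of the other comparisons in which edgeR called 0 of the 9, DESeq2 and limma-voom also called 0. A-485 against DMSO gave 0 of 9 (0.66% of all genes), with 1 at an unadjusted p under 0.05 (12.3% of all genes), a median of -0.23 beside -0.00 for all genes, and 2 genes lower without overlap (Wwtr1 and Tead1, 8.84% of all genes).

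With IFNγ, the median log2 difference of the 9 genes was -0.42 for A-241+IFNγ and -0.51 for A-485+IFNγ against IFNγ alone, beside -0.02 and -0.03 for all genes. Values were negative for 7 of 9 and for 8 of 9 genes, against 51.6% and 53.1% of all genes. In each comparison 4 of the 9 had an unadjusted p under 0.05 in edgeR, against 20.2% and 14.7% of all genes. Ankrd1 and Tead1 lay lower without overlap under both inhibitors, and Lats2 did so under A-485+IFNγ only, which is 2 of 9 and 3 of 9 genes against 12.1% and 10% of all genes. Both comparisons share the 3 IFNγ libraries, so their values are not independent of each other.

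Ctgf, also named Ccn2, encodes connective tissue growth factor, a secreted matricellular protein and a standard readout of YAP activity. The gene is ENSMUSG00000019997 at chr10:24595442-24598683 on the plus strand, and shares exon bases with Gm15270, so its reads may include some from that gene. Its level was 13.7, 68.8 and 10.02 CPM in DMSO, 4.42, 5.41 and 7.16 CPM in A-241, and 16.4, 18.5 and 11.4 CPM in A-485. With IFNγ it was 132, 4.47 and 55.6 CPM, with A-241+IFNγ 2.18, 15.7 and 6.60 CPM, and with A-485+IFNγ 15.9, 18.5 and 8.17 CPM. The A-241 libraries lay below every DMSO library, while the IFNγ libraries reached from the lower end to the top of all values.

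The Ctgf difference of A-241 from DMSO was -2.48 (SE 0.92, 95% interval -4.43 to -0.52, edgeR adjusted p = 0.113). A-485 differed from DMSO by -1.03 (SE 0.85, adjusted p = 0.654). Against IFNγ the values were -2.95 for A-241+IFNγ (SE 0.90, adjusted p = 0.0562) and -2.19 for A-485+IFNγ (SE 0.86, adjusted p = 0.245). None of the 4 passed, although each was the largest in size among the 9 genes in its comparison. Single control libraries moved these values both ways. Without DMSO replicate 2, at 68.8 CPM the highest of its condition, A-241 against DMSO was -1.08 and A-485 against DMSO 0.37, with its sign turned. Without IFNγ replicate 1, at 132 CPM, A-241+IFNγ against IFNγ was -1.88 and A-485+IFNγ against IFNγ -1.12, and none of these 4 was called. With DMSO replicate 3 and IFNγ replicate 2 left out together, 3 of the 4 comparisons passed in edgeR. These libraries held the lowest Ctgf level of their conditions, 10.02 and 4.47 CPM. Leaving them out thus raised the control levels and left fewer control libraries. A-241 against DMSO was then -2.92 (edgeR adjusted p = 0.00255, 8.13% of all genes called), A-241+IFNγ against IFNγ -3.47 (adjusted p = 0.000224) and A-485+IFNγ against IFNγ -2.74 (adjusted p = 0.00336). A-485 against DMSO was -1.46 (adjusted p = 0.150, 2.46% of all genes called). Leaving out IFNγ replicate 2 alone sufficed for A-241+IFNγ against IFNγ (edgeR adjusted p = 0.00453).

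Cyr61, also named Ccn1, encodes a secreted protein of the same family as Ctgf. The gene (ENSMUSG00000028195, chr3:145646976-145649981, minus strand) shares no exon bases with another gene. Its level was 9.70, 24.2 and 1.73 CPM in DMSO, 15.99, 18.6 and 29.5 CPM in A-241, and 18.4, 12.6 and 9.53 CPM in A-485. With IFNγ it was 106, 5.36 and 24.5 CPM, with A-241+IFNγ 17.8, 103 and 20.2 CPM, and with A-485+IFNγ 17.0, 16.7 and 10.8 CPM. Single libraries stood high in IFNγ and A-241+IFNγ, and the lowest values were those of DMSO replicate 3 and IFNγ replicate 2.

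Cyr61 was not called in any comparison. Its log2 difference was 0.77 for A-241 against DMSO (SE 0.88, edgeR adjusted p = 0.641), where Ctgf had a negative value. It was 1.88 for IFNγ against DMSO (SE 0.87, unadjusted p = 0.0469, edgeR adjusted p = 0.575) and -1.64 for A-485+IFNγ against IFNγ (SE 0.86, adjusted p = 0.389). The 95% interval of the first of these was -1.09 to 2.63. Leaving out 1 library took it to between 0.33 (without DMSO replicate 3) and 1.79 (without DMSO replicate 2). The IFNγ difference went to 0.30 without IFNγ replicate 1 and to 2.91 without DMSO replicate 2, and that of A-485+IFNγ to -0.06 without IFNγ replicate 1 and to -2.16 without IFNγ replicate 2. With DMSO replicate 3 and IFNγ replicate 2 both left out, the 3 values were 0.27, 1.92 and -2.17 (edgeR adjusted p = 0.842, 0.145 and 0.0392).

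The spread among replicates set these limits. The standard deviation of log2 CPM within a condition was 1.33 for Ctgf and 1.30 for Cyr61, against a median of 0.36 over all genes tested, and 99.5% and 99.3% of genes had a smaller one. Wwtr1 (0.19) and Tead1 (0.19) were the steadiest of the 9, Ankrd1 (0.28), Lats2 (0.29) and Amotl2 (0.33) lay below the median, and Ajuba (0.50) and Yap1 (0.68) above it.

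Ctgf and Cyr61 rose and fell together among replicates. Over the 18 libraries, the deviations of their log2 CPM from the condition means had a Pearson r of 0.90, and r was 0.86 over the 16 libraries without DMSO replicate 3 and IFNγ replicate 2. Ankrd1 followed Ctgf with r of 0.74 over 18 and 0.81 over 16 libraries, and Cyr61 with 0.69 and 0.77. All the points share their libraries and scaling, so these values describe this set of libraries only. The value between Lats2 and Yap1 went from -0.75 over 18 libraries to -0.05 over 16, and that between Ctgf and Lats2 went from -0.41 over 18 libraries to 0.34 over 16.

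**Figure D3:**
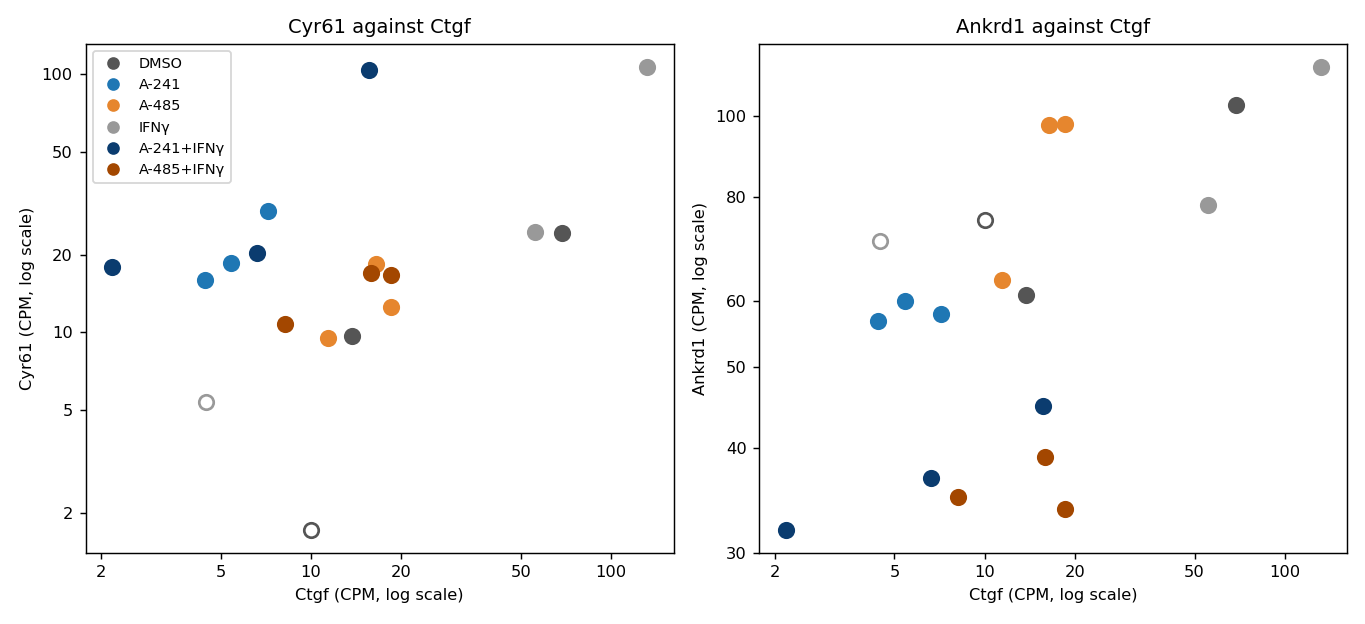
Level of Cyr61 (left) and of Ankrd1 (right) against that of Ctgf in the 18 libraries, in CPM on log axes. Each point is 1 library, coloured by condition, and open points are DMSO replicate 3 and IFNγ replicate 2. IFNγ replicate 1, with 132 CPM of Ctgf, 106 CPM of Cyr61 and 114 CPM of Ankrd1, is the highest point of both panels, and the A-241 libraries sit to the left of DMSO for Ctgf but not below it for Cyr61.

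Genes with the most similar pattern were sought over the 18 libraries among genes with at least 50 counts on average. For Ctgf they were Marcks (r = 0.95), Fam185a (0.91) and Lgr4 (0.91). For Cyr61 they were Tmed9 (0.96), Gm3608 (0.93) and Atad1 (0.93). For Ankrd1 they were Id1 (0.86), Cebpb (0.84) and Erf (0.84). With condition means removed, r stayed at 0.85 for Ankrd1 and Id1 and was 0.36 for Ankrd1 with each of Cebpb and Erf. It was 0.94, 0.93 and 0.92 for Ctgf with Marcks, Fam185a and Lgr4, and 0.96, 0.94 and 0.97 for Cyr61 with Tmed9, Gm3608 and Atad1. These values are above the 0.90 between Ctgf and Cyr61, so rising and falling together was not particular to that pair. DMSO replicate 3 and IFNγ replicate 2 enter all of these values, and their share in them was not tested.

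Lats2, the kinase that phosphorylates YAP and is itself induced by YAP and TEAD, was highest with IFNγ. The gene (ENSMUSG00000021959, chr14:57689662-57758388, minus strand) shares exon bases with Gm49361. Its level was 6.75, 9.32 and 13.1 CPM in DMSO, 7.15, 8.61 and 10.3 CPM in A-241, and 7.94, 8.59 and 6.97 CPM in A-485. With IFNγ it was 16.7, 23.5 and 13.6 CPM, with A-241+IFNγ 13.9, 13.0 and 13.0 CPM, and with A-485+IFNγ 10.1, 8.96 and 11.8 CPM. Within DMSO, A-241 and A-485, the libraries with IFNγ lay above those without it, with no overlap.

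The Lats2 difference of IFNγ from DMSO was 0.89 (SE 0.24, 95% interval 0.38 to 1.41, edgeR adjusted p = 0.0965). Of the 9 genes, 0 were called in this comparison, in which 1.3% of all genes were called, and 2 of 9 had an unadjusted p under 0.05 (8.49% of all genes). Lats2 was the only one of the 9 that lay higher without overlap, against 4.16% of all genes, and Tead1, at -0.27 (SE 0.17, edgeR adjusted p = 0.770), the only one that lay lower, against 3.69% of all genes. The same difference was 0.61 in the presence of A-241 (SE 0.24, edgeR adjusted p = 1.00), where 6.08% of all genes lay higher without overlap. It was 0.39 in the presence of A-485 (SE 0.25, adjusted p = 1.00), where 9.49% of all genes did. A-485+IFNγ differed from IFNγ by -0.79 (SE 0.24, adjusted p = 0.118), with its libraries below those of IFNγ, and A-241+IFNγ by -0.42 (adjusted p = 0.347), with overlap. The highest Lats2 value, 23.5 CPM, was in IFNγ replicate 2, and without it and DMSO replicate 3 the IFNγ difference was 0.90 (edgeR adjusted p = 0.0250), while A-485+IFNγ and A-241+IFNγ differed from IFNγ by -0.57 and -0.20 (adjusted p = 0.0754 and 0.532).

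Comparisons of each inhibitor with and without IFNγ gave little else among the 9 genes. A-241+IFNγ against A-241 called 0 of 9 (0.192% of all genes), and 2 of 9 had an unadjusted p under 0.05 (3.74% of all genes), with Ankrd1, like 7.2% of all genes, lower without overlap at a log2 difference of -0.62 (SE 0.23, unadjusted p = 0.0160, edgeR adjusted p = 0.982). A-485+IFNγ against A-485 had 1 of 9 at an unadjusted p under 0.05 in edgeR, which was Ankrd1, against 5.83% of all genes.

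Amotl2 and Ajuba encode scaffold proteins that act back on the pathway, an angiomotin that retains YAP and a LIM protein that binds LATS kinases. Amotl2 (ENSMUSG00000032531, chr9:102716672-102733418, plus strand) ranged from 3.46 to 9.06 CPM over the 18 libraries and was lowest in DMSO replicate 3. Its log2 difference from DMSO was 0.56 with A-241 (SE 0.28, edgeR adjusted p = 0.251) and 0.58 with A-485 (SE 0.28, adjusted p = 0.425), and it was -0.14 and -0.31 for A-241+IFNγ and A-485+IFNγ against IFNγ. With DMSO replicate 3 and IFNγ replicate 2 left out these were 0.33, 0.35, -0.35 and -0.52 (edgeR adjusted p from 0.171 to 0.519). Without DMSO replicate 2 the A-241 difference was 0.87, and without IFNγ replicate 3 that of A-241+IFNγ was -0.00. The A-485 interaction of Amotl2 was -0.88 (SE 0.39, unadjusted p = 0.0398, edgeR adjusted p = 1.00).

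Ajuba (ENSMUSG00000022178, chr14:54567472-54577558, minus strand) ranged from 2.68 to 11.2 CPM. Its lowest values were 2.94 and 2.68 CPM in A-241+IFNγ replicates 2 and 3, beside 6.09 CPM in replicate 1. With IFNγ alone it was 10.6, 3.87 and 6.99 CPM, so the conditions overlapped. A-241+IFNγ differed from IFNγ by -0.94 (SE 0.40, unadjusted p = 0.0326, edgeR adjusted p = 0.193), and from A-485+IFNγ, at another dose of another compound, by -0.90 (SE 0.40, adjusted p = 0.709). Without IFNγ replicate 2 and DMSO replicate 3 the difference from IFNγ was -1.22 (edgeR adjusted p = 0.0175).

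Yap1, the coactivator itself, showed no called difference under either inhibitor. The gene (ENSMUSG00000053110, chr9:7931999-8004596, minus strand) shares exon bases with Gm20416. Its level was 11.1 CPM in DMSO replicate 3 and 11.6 CPM in IFNγ replicate 2 and between 32.0 and 52.0 CPM in the other 16 libraries. These low values are from the libraries with the highest Gm42418 share, and the part of that share in them was not tested. Log2 differences were 0.44 for A-241 and 0.38 for A-485 against DMSO (SE 0.44 for each, edgeR adjusted p = 0.591 and 0.742). Against IFNγ they were 0.13 for A-241+IFNγ and 0.12 for A-485+IFNγ (SE 0.44 for each, adjusted p = 0.907 and 0.932). Without DMSO replicate 3 and IFNγ replicate 2 the values were 0.02 and -0.03 against DMSO and -0.29 and -0.31 against IFNγ (edgeR adjusted p from 0.248 to 0.955), so both signs against IFNγ and that of A-485 turned.

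Wwtr1, which encodes TAZ, the paralogue of YAP, was among the steadiest genes. The gene (ENSMUSG00000027803, chr3:57455649-57575910, minus strand) ranged from 16.1 to 28.2 CPM. It was 25.9, 23.5 and 22.5 CPM in DMSO and 20.7, 18.5 and 17.9 CPM in A-485, without overlap, a log2 difference of -0.33 (SE 0.18, edgeR adjusted p = 0.482). The difference of A-241 from DMSO was -0.00 (95% interval -0.38 to 0.38, adjusted p = 0.996), which leaves room for changes of that size in either direction.

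Tead1, a TEAD factor that carries YAP and TAZ on DNA, was lower with either inhibitor, in every library and with or without IFNγ, but did not reach the threshold. The gene (ENSMUSG00000055320) lies at chr7:112679318-112906807 on the plus strand. Its level was 39.8, 36.9 and 50.1 CPM in DMSO, 19.98, 27.8 and 28.7 CPM in A-241, and 31.2, 22.3 and 27.9 CPM in A-485. With IFNγ it was 35.5, 36.9 and 32.2 CPM, with A-241+IFNγ 24.4, 23.2 and 26.2 CPM, and with A-485+IFNγ 24.7, 23.8 and 24.7 CPM. All 12 libraries with an inhibitor lay below all 6 without, and the share of all genes that did so was not counted.

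The Tead1 difference of A-241 from DMSO was -0.72 (SE 0.17, 95% interval -1.09 to -0.36, edgeR adjusted p = 0.0139), and DESeq2 called it. That of A-485 from DMSO was -0.63 (SE 0.17, edgeR adjusted p = 0.0771). Against IFNγ the differences were -0.50 with A-241+IFNγ (SE 0.17, adjusted p = 0.0926) and -0.51 with A-485+IFNγ (SE 0.17, adjusted p = 0.166). The highest level, 50.1 CPM, was in DMSO replicate 3, and without that library the A-241 difference was -0.58 (adjusted p = 0.0611) and the A-485 difference -0.49 (adjusted p = 0.278).

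The inhibitors were also compared with each other, at doses that differ by label and with compounds that are not shown to be equally potent. A-241 against A-485 called 0 of the 9 genes (0.368% of all genes), with 1 at an unadjusted p under 0.05 (8.15% of all genes). That gene was Ankrd1, at -0.57 (SE 0.23, 95% interval -1.05 to -0.09, edgeR adjusted p = 0.464), with A-241 lower without overlap. Ctgf was -1.45 (95% interval -3.42 to 0.52, adjusted p = 0.831), also lower without overlap, so that 2 of the 9 were lower in this way against 11.3% of all genes, and Wwtr1 was higher, as were 11.2% of all genes. With IFNγ, 0 of 9 were called (0.518% of all genes) and 1, Ajuba, had an unadjusted p under 0.05 (6.5% of all genes). Without overlap, Ajuba was then lower (11.8% of all genes) and Cyr61 and Lats2 were higher (7.96% of all genes) with A-241+IFNγ than with A-485+IFNγ. Tead1 differed between the inhibitors by -0.09 (95% interval -0.46 to 0.28) without IFNγ and by 0.01 (95% interval -0.36 to 0.38) with it.

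Other genes of the pathway were read from lists of known members. Of 11 Hippo kinases and upstream regulators tested, 0 were called with A-241 (4.35% of all genes), A-485 (0.66%), A-241+IFNγ (4.09%) or A-485+IFNγ (0.552%), and their median log2 difference lay between -0.09 and 0.05. With IFNγ against DMSO, 1 of the 11 was called, the scaffold Sav1 at 1.51 (edgeR adjusted p = 0.00954, 1.2% of all genes called higher), which was named after its value was seen. That call was lost when 5 of the 6 libraries were left out in turn. Of 4 further angiomotin and Ajuba family genes, 0 were called in these comparisons, at the same shares of all genes.

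Among the TEAD factors and their Vgll cofactors, 5 of 7 genes were tested and 1 of 5, Tead4, was called lower with A-241 (3.53% of all genes called lower), A-241+IFNγ (3.54%) and A-485+IFNγ (0.535%). Its counts were low, at 12, 22 and 9 in DMSO, 2, 3 and 1 in A-241, and 2, 6 and 12 in A-485. With IFNγ they were 41, 20 and 23, with A-241+IFNγ 3, 8 and 5, and with A-485+IFNγ 4, 2 and 4. Tead4 thus passed the filter on low counts mainly through the libraries without an inhibitor, in which it was higher. The count of 1 of 5 beside the shares of all genes is therefore a description only. With A-241 against DMSO, Tead4 fell by 2.81 (SE 0.58, edgeR adjusted p = 0.00551), by 2.26 with A-241+IFNγ (SE 0.47, adjusted p = 0.00604) and by 2.89 with A-485+IFNγ (SE 0.51, adjusted p = 0.00814) against IFNγ. A-485 against DMSO gave -1.15 (adjusted p = 0.324), with overlap. Each of these calls was lost when any 1 library of its 6 was left out, with log2 differences from -3.17 to -2.05 in all settings tried.

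Among further target genes of YAP and TAZ, Tgfb2, Fjx1 and Asap1 fell with A-241, with and without IFNγ, and Tgfb2 also with A-485. Of the 17 genes on this list 12 passed the filter on low counts and were tested, and 12 of 12 had negative values with A-241 (median -0.91) and with A-485 (median -0.69), against medians of 0.01 and -0.00 over all genes. With IFNγ, 11 of 12 were negative for A-241+IFNγ (median -0.85) and 10 of 12 for A-485+IFNγ (median -0.64). Over all genes, 48.9% were negative with A-241, 50.3% with A-485, 51.6% with A-241+IFNγ and 53.1% with A-485+IFNγ. The threshold was passed by 3 of 12 with A-241 (3.53% of all genes called lower), 1 of 12 with A-485 (0.619%), 3 of 12 with A-241+IFNγ (3.54%) and 0 of 12 with A-485+IFNγ (0.535%). For A-485+IFNγ, 7 of these 12 had an unadjusted p under 0.05 in edgeR, against 14.7% of all genes, and DESeq2 called 3, against 1.95% of all genes. The list was chosen with earlier results of these data known. The filter asks for counts in some libraries only, and Fjx1, with few counts under A-241, could pass it only through other libraries. The numbers of genes falling therefore describe this list and are not independent support for a fall.

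**Figure D4:**
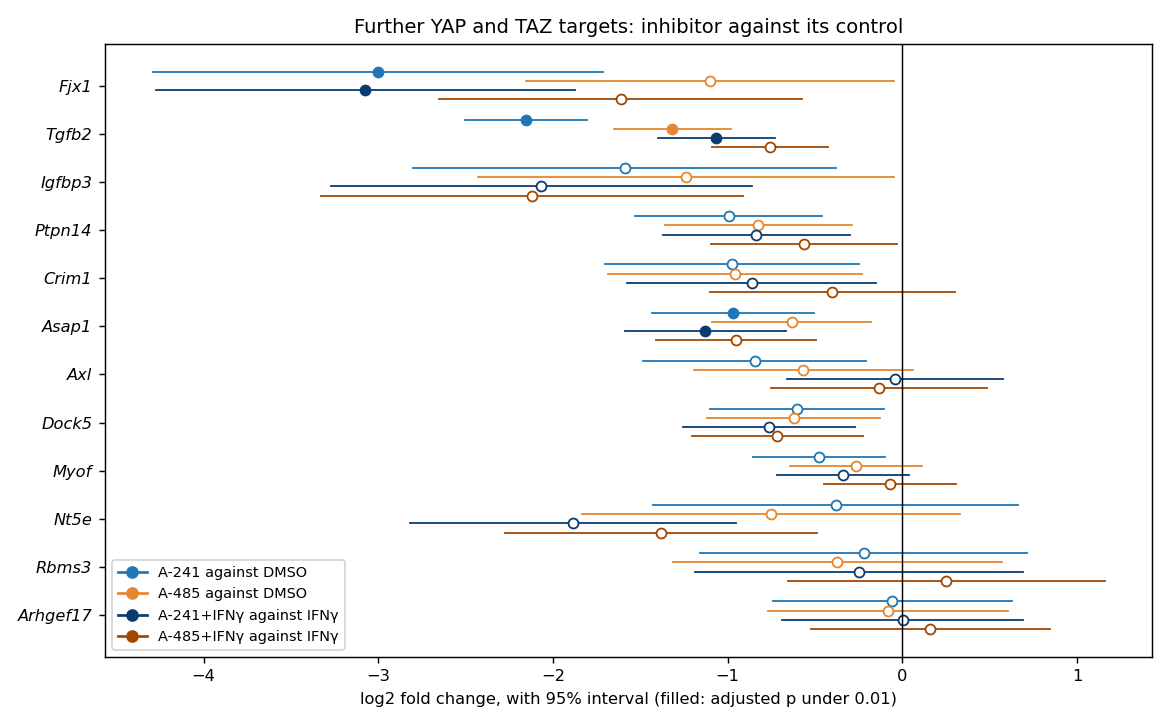
Fitted log2 fold change (x axis) of the 12 tested further targets of YAP and TAZ for each inhibitor against its control, without and with IFNγ. Points are edgeR estimates, lines are 95% intervals, filled points have an adjusted p under 0.01, and the genes are ordered by their value with A-241. Most points lie left of 0, and Tgfb2, at -2.16 with A-241, has the narrowest interval of the genes called.

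Tgfb2, which encodes a secreted growth factor of the TGF-beta family, carried the firmest change on this list. Its level was 43.6, 34.4 and 39.7 CPM in DMSO, 8.62, 7.61 and 10.1 CPM in A-241, and 15.4, 13.6 and 18.4 CPM in A-485. It fell by 2.16 with A-241 (SE 0.16, edgeR adjusted p = 4.00e-07) and by 1.32 with A-485 (SE 0.16, adjusted p = 0.000304) against DMSO. Against IFNγ, where it was 26.5, 25.6 and 28.0 CPM, it fell by 1.06 with A-241+IFNγ (SE 0.16, adjusted p = 0.000369). A-485+IFNγ gave -0.76 (SE 0.16, adjusted p = 0.0197). No library without an inhibitor was as low as any with one, a separation not counted over all genes, and the 3 calls held without any 1 library.

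Fjx1, which encodes a secreted Golgi glycoprotein, fell by 3.00 with A-241 (SE 0.61, edgeR adjusted p = 0.00470) and by 3.07 with A-241+IFNγ (SE 0.57, adjusted p = 0.00240), from counts of 19 to 40 in the controls to counts of 1 to 7. Asap1, which encodes an Arf GTPase-activating protein, fell by 0.97 (SE 0.22, adjusted p = 0.00991) and by 1.13 (SE 0.22, adjusted p = 0.00340). The Fjx1 calls held for 1 and 4, and the Asap1 calls for 0 and 2, of the 6 libraries left out in turn.

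AP-1 factors bind many enhancers beside TEAD, and 6 of 7 were tested. Against DMSO, 0 of the 6 were called with A-241 (4.35% of all genes) or A-485 (0.66%), with median log2 differences of 0.02 and -0.05. Against IFNγ, 1 was called lower (3.54%) and 1 higher (0.543%) with A-241+IFNγ, at a median of -0.47. With A-485+IFNγ 0 were called (0.552%), at a median of -0.23. Jun rose with IFNγ by 1.36 against DMSO (SE 0.13, edgeR adjusted p = 3.40e-06, 1.2% of all genes called higher), from 89.2, 79.3 and 85.0 CPM to 209, 243 and 200 CPM. With A-241+IFNγ it was 137, 136 and 137 CPM, a fall of 0.67 against IFNγ (SE 0.13, adjusted p = 0.00266), and with A-485+IFNγ 150, 135 and 149 CPM, a difference of -0.59 (adjusted p = 0.0233). Fos rose by 2.23 with A-241+IFNγ against IFNγ (SE 0.36, adjusted p = 0.000753, 0.543% of all genes called higher), from 8, 7 and 8 counts to 26, 47 and 31 counts. With so few counts under IFNγ alone, Fos could pass the filter on low counts only through other libraries. Its call beside the share of all genes is therefore a description only. Of the 14 factors and targets of serum response factor, which shares targets with YAP, 1 was called with an inhibitor, Tpm1 at -0.56 with A-241 (SE 0.12, edgeR adjusted p = 0.00816, 3.53% of all genes called lower), a call lost without any 1 of the 6 libraries. The Jun call against IFNγ was lost without any 1 of the A-241+IFNγ libraries.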

How the data were processed

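RNA of AT3 cells was measured by 3′ mRNA-seq (QuantSeq) in 18 libraries, 3 per condition. The file holds whole-number read counts, not normalised, that the authors obtained by demultiplexing with bcl2fastq 2.17.1.14, read checks with FastQC 0.11.5, trimming with cutadapt 1.7, alignment to GRCm38 (mm10) with HISAT2 2.1.0 and counting on exons with featureCounts. Reads over several genes were counted for each, and the annotation release and strand setting are not given in the sources used here. Reads of this kit fall near transcript ends, so levels of different genes were not compared.

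Of 43629 identifiers, 42548 matched GENCODE vM21. In R 4.3.3, edgeR 4.0.16 kept genes with filterByExpr by condition, scaled libraries with TMM factors, fitted 1 mean per condition to all 18 libraries with glmQLFit and tested each comparison with glmQLFTest. The Benjamini-Hochberg method was applied over all 11964 genes tested, and calls were made below 0.01. The standard error is the size of the log2 fold change over the square root of F. Adjusted p-values without a named tool are those of edgeR. Log2 CPM used a prior count of 2. The scripts were tested on simulated data. Total counts had a median of 4880947.5 per library, and counts of single genes limit the precision of Amotl2 (10 to 66), Ajuba (13 to 86) and Lats2 (30 to 136).

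The members and lists were chosen with earlier results of these data known. All 9 members were named in every comparison. Of each further list (Hippo kinases, angiomotins and Ajuba family, TEAD and Vgll, further targets, AP-1, serum response factor), at most 6 genes by lowest adjusted p were named, among those called for an inhibitor against DMSO or IFNγ. The 3 genes with the highest r over the libraries were sought for Ctgf, Cyr61, Ankrd1 and Amotl2, and those for Amotl2 are not reported here. Alternatives were DESeq2 1.42.0, limma-voom (limma 3.58.1), other filters and scalings, 2 surrogate variables (sva 3.50.0), a replicate block, a threshold of 0.05, only the groups compared, and libraries left out. Promoters are from RefSeq (GRCm38.p6). Figures were drawn with matplotlib. The paper's chromatin data and its JQ1 data were not used here.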

Additional observations from a re-analysis of the deposited data

How the results depend on the processing

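Counts of the 9 genes called moved with the processing, and no called gene changed direction in any setting. For A-241 against DMSO the count was 0, and 1 at an adjusted p under 0.05 (Tead1, 9.07% of all genes), 1 with DESeq2 (Tead1, 6.8%), 3 with 2 surrogate variables (Ctgf, Ankrd1 and Tead1, 18%) and 1 without DMSO replicate 3 and IFNγ replicate 2 (Ctgf, 8.13%), so the share of all genes called was also above the 4.35% of the reported fit. With surrogate variables it also went from 0 to 2 for A-485 against DMSO (Ctgf and Tead1, 6.39% of all genes), to 2 for A-241 against A-485 (Ctgf and Ankrd1, 4.76%), to 1 for IFNγ against DMSO (Lats2, 3.77%), to 1 for A-241+IFNγ against A-485+IFNγ (Ctgf, 2.52%), to 1 for A-241+IFNγ against A-241 (Ankrd1, 1.04%) and to 1 for the A-485 interaction (Ankrd1, 0.209%). A fit on the groups compared alone gave 1 for A-241 against A-485 (Ctgf, 1.1%).

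For A-241+IFNγ against IFNγ the count was 1, and 2 with DESeq2 (6.32% of all genes), 3 with surrogate variables (12.9%), 2 without both libraries (7.82%), 0 with scaling by total counts, 0 with the groups alone, and 0 to 2 without 1 library. For A-485+IFNγ against IFNγ it was 1, and 2 without both libraries (2.68%), 0 with total counts, 0 with upper-quartile factors, 0 with the replicate block, 0 with the groups alone, and 0 to 1 without 1 library. For A-485+IFNγ against A-485 it was 1, and 0 with at least 10 counts in every library, 0 with total counts, 0 with the replicate block, and 0 to 1 without 1 library. Shares of all genes are given only where the count rose, so these values do not show whether calls were also lost among all genes. The cause of these changes was not tested.

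Deviations from condition means correlated between -0.80 and 0.48 over 45 same-numbered pairs of libraries, of which 15 were over 0.1. Differently numbered libraries were not compared in this way, so these values cannot tell whether the replicate numbers pair the libraries. The replicate block is given as an alternative, and it changed no other of the 9-gene counts. Scaling by total counts moved the median of all genes by 0.10 for A-241 against DMSO, 0.14 for A-241+IFNγ and 0.10 for A-485+IFNγ against IFNγ. Of the 11 comparisons, the A-241 interaction alone kept its count of 0 in every setting. Of the 99 single values (9 genes in 11 comparisons), 37 changed sign in at least 1 setting, and none was called where it did. With 3 replicates and the spread seen here, wide intervals remain for Ctgf and Cyr61.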
